A study of Mesocricetus auratus with 8 samples.

Results

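The proteasome genes of Syrian hamster satellite cells (SCs), the stem cells of skeletal muscle, were examined before and after cold exposure in culture. Members were all genes with values whose symbol begins with Psm, a letter from a to g and a number. This gave 49 of the 17590 genes with values, out of 31581 entries listed. They were 14 standard subunits of the 20S core, 5 tissue-restricted core subunits, 6 ATPases and 11 non-ATPase subunits of the 19S regulatory particle, 3 chaperones that assemble it, 4 activator genes, the inhibitor Psmf1, 4 chaperones of the core, and Psme3ip1. The last is no subunit, and its symbol matches only because its product interacts with the activator PA28γ. The filter on low counts was passed by 46 members, which left Psma8, Psmb9 and Psmb11 out of the main edgeR fits. Alternatives with a looser filter took in 48 or 49 members.

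All libraries came from wild-type hamsters, from hindlimb muscle SCs that were purified by preplating and cultured in growth medium on Matrigel. There were 4 control libraries (0 h, 37°C) and 4 cold libraries, numbered 1 to 4 in each group. Cold SCs were kept at 37°C for 48 h, then for 24 h at 37°C in growth medium with HEPES, and then, with the medium unchanged, at 4°C for another 24 h. The study's scheme places the controls just before the cold step, and their own labels do not mention HEPES. Their titles give day 3, whereas their treatment labels read 3, 4, 5 and 6 days at 37°C for numbers 1 to 4. By the titles and the scheme, cold cells were collected 24 h after all controls, with no group at 37°C for those hours. By the treatment labels only control 1 was on day 3 and the others were later. Under the first account, temperature cannot be told apart from time in culture or from the longer time in unchanged medium with HEPES. If the controls were kept without HEPES, the medium differed too. The labels do not settle which account holds. The libraries are described as biological replicates, but the labels do not say what a shared number means.

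The proteasome is the main protease for ubiquitin-tagged proteins. Its barrel-shaped 20S core has outer rings of α subunits (Psma) that gate the entrance and inner rings of β subunits (Psmb) that hold the active sites. The 19S particle caps the barrel, binds and removes ubiquitin chains, and unfolds the substrate with a ring of ATPases (Psmc), whereas PA28 and PA200 (Psme) open the core without ATP. In skeletal muscle this pathway is best known for breaking down myofibrillar protein during atrophy.

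Levels are given in TPM, the abundance of a transcript relative to all others in a library after scaling to transcript length, which can be compared between genes. Depth was 16530747 to 18533801 expected counts per library. The labelled cell type was checked against marker genes. All 7 myogenic markers were present, with a summed level of 1690.1 to 2169 TPM in the 8 libraries. The 7 fibroblast markers were present too, summing to 1201 to 1739 TPM. Among leukocyte markers, Ptprc did not exceed 0.03 TPM and Adgre1 was listed at 0 in 7 libraries, whereas Cd68 reached 52.0 TPM. The 5 endothelial markers summed to 2.41 to 4.14 TPM. In bulk RNA, fewer cells of a type and less RNA per cell cannot be told apart.

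No change in a proteasome transcript was detected after 24 h at 4°C. Core, 19S, activator and chaperone genes were expressed in both groups. The summed level of the 49 members was 10341 ± 313 TPM in the controls and 10326 ± 262 TPM in the cold (SD, n = 4 each), which was 1.03% of the total in each. By edgeR's quasi-likelihood test with Benjamini-Hochberg adjustment over 12506 genes, 0 of 46 members passed an adjusted p of 0.05, beside 0.072% of all genes tested (9 genes). The smallest adjusted p of a member was 0.853 in this edgeR test. At an unadjusted p under 0.05 the count was also 0 of 46, beside 6.7% of all genes.

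Libraries of the same number deviated together, so the fit was repeated with the replicate number as a block. Over the 46 members the correlation of these deviations was 0.627, 0.785, 0.845 and 0.283 for numbers 1 to 4, but control 1 was closer to cold 2 (0.665) and control 4 to cold 3 (0.484) than to the cold library of its own number. The median standard error of a member's log2 fold change was 0.079 without the block and 0.040 with it. With the block, 0 of 46 members were called lower, beside 4.07% of all genes, and 0 were called higher, beside 1.26%. The smallest adjusted p of a member in this blocked edgeR fit was 0.115. At an unadjusted p under 0.05, 3 members were lower in cold with the block (Psmb3, Psmd7 and Psmf1), beside 9.76% of all genes, and 0 were higher, beside 8.48%. Of the 7 myogenic markers, 3 were called lower in the blocked edgeR fit and 0 in the unblocked one.

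Estimated changes were small, and their bounds depended on the block. Log2 fold changes of the members ran from -0.15 (Psmf1) to 0.08 (Psmd12), with a median of 0.0026, beside 0.0071 over all genes tested. Without regard to sign, the median size was 0.035 for members and 0.069 for all genes on the log2 scale. With the block, the 95% interval of 45 of 46 members lay inside a log2 change of 0.3 in either direction, which is 1.23-fold, and 38 lay inside 0.2, or 1.15-fold. Without the block, 39 lay inside 0.3, 18 inside 0.2 and 45 inside a log2 change of 0.5, or 1.41-fold. Psmb8 was the exception, with 4 to 21 counts per library and a blocked interval from -0.75 to 0.67 on the log2 scale.

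**Figure D1:**
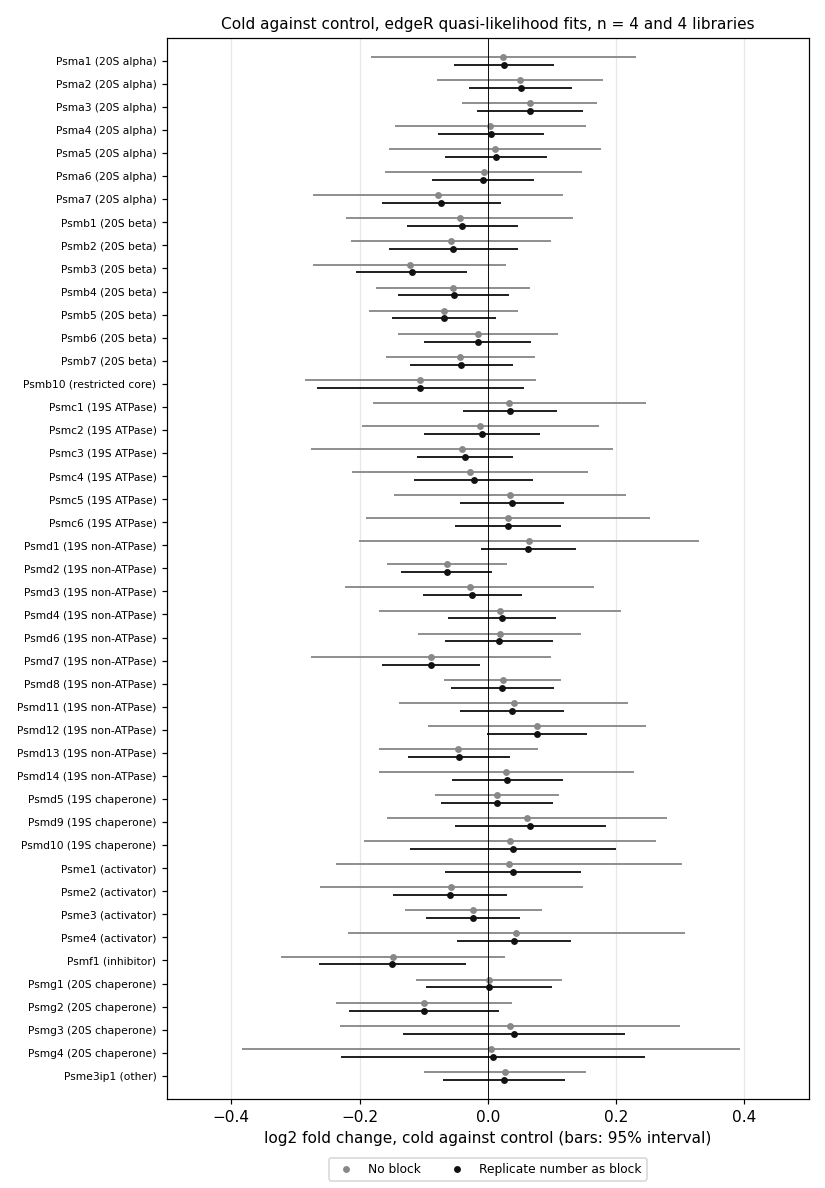
Log2 fold change of cold against control (horizontal axis) for 45 tested members, with 95% intervals, from edgeR fits without a block (grey) and with the replicate number as a block (black). Psmb8 is left out because its interval is wider than the axis. Without the block all 45 intervals include 0, and with it those of Psmb3, Psmd7 and Psmf1 do not, though none passed the adjusted threshold.

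Control and cold libraries overlapped in TPM for all tested members. Of the 46, 0 had every cold library below every control, beside 2.41% of all genes, and 0 had every cold library above, beside 2.27%. Between libraries of the same number, 6 members were lower in cold in 4 of 4 pairs (Psmb3, Psmb5, Psmb10, Psmd7, Psme2 and Psmf1), beside 10.5% of all genes. Another 7 were higher in 4 of 4 pairs (Psma2, Psmc1, Psmc5, Psmd1, Psmd8, Psmd12 and Psme3ip1), beside 12.8%. These shares were near the background, so they are no result about the proteasome genes.

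**Figure D2:**
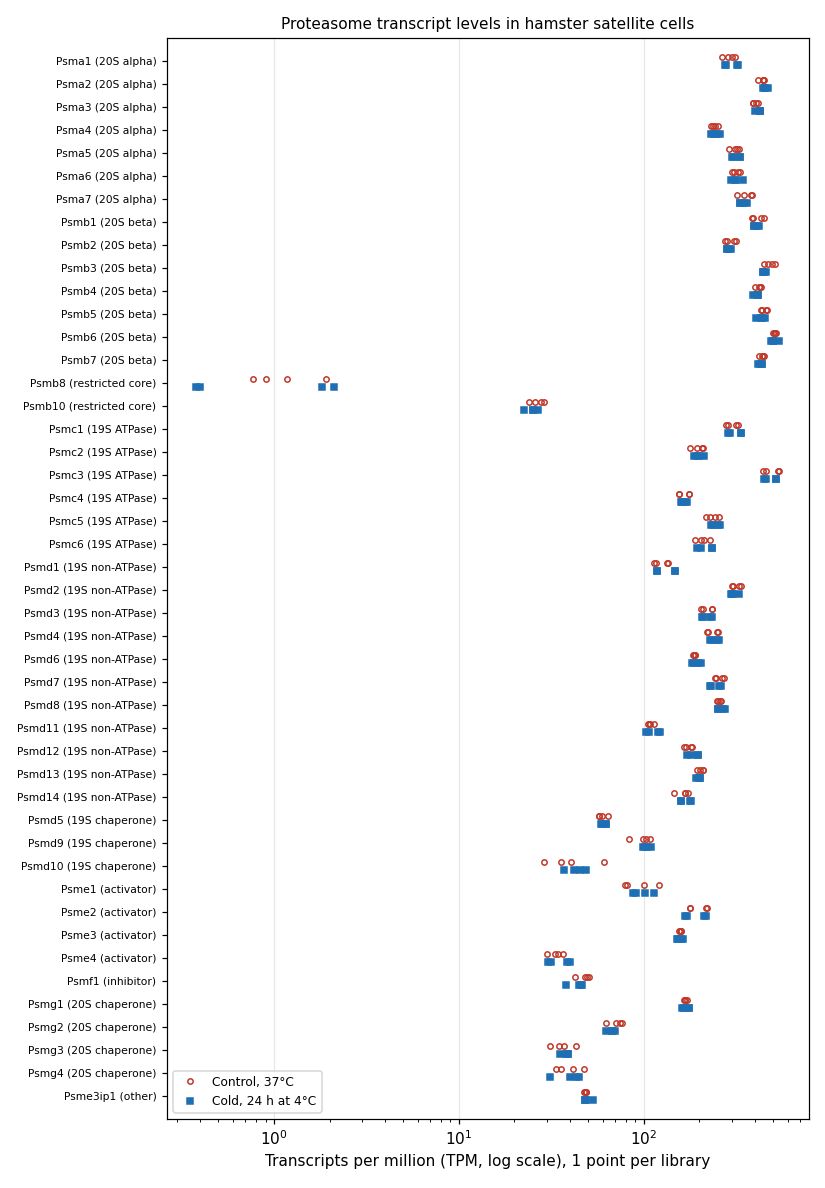
TPM on a log axis for the 46 tested members, labelled by role, with open circles for the 4 control and filled squares for the 4 cold libraries. The mean of 45 members lies above 20 TPM and that of Psmb8 at 1.18 TPM, and the symbols of the groups overlap in each row.

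The α subunits form the gate of the core. Their mean levels spanned 1.84-fold. Psma2, the highest, measured 446, 445, 414 and 444 TPM in controls 1 to 4 and 473, 453, 455 and 445 TPM in cold libraries 1 to 4. Cold 1 to 3 lay above all controls and cold 4 lay among them. The log2 fold change of Psma2 was 0.05 ± 0.06 (SE; adjusted p = 0.999, edgeR). Psma4, the lowest, measured 254, 244, 231 and 238 TPM in controls and 249.8, 258, 241 and 232 TPM in cold libraries, so the groups interleaved. Of the 7 α genes, 5 had fold changes above 0 and 2 below, with a median log2 fold change of 0.01, and 0 of 7 were called in either fit. This balance rested on single libraries: without control 3, control 4, cold 1 or cold 2 (each left out in turn) 5 of 7 were below 0 (medians -0.04, -0.004, -0.01 and -0.02), and without control 1 it was 1 of 7 (median 0.04).

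The β subunits carry the proteolytic sites of the core. Psmb6, the caspase-like site, had the highest level of all members at 509 TPM on average. It measured 502, 517, 512 and 508 TPM in controls and 542, 499, 490.5 and 499 TPM in cold libraries, with cold 1 above and the other cold libraries below all controls. Psmb5, the chymotrypsin-like site, measured 467, 433, 458 and 435 TPM in controls and 437, 407, 453 and 429 TPM in cold libraries. Each cold library lay below the control of its number, but the ranges overlapped, and the log2 fold change was -0.07 ± 0.05 (SE; adjusted p = 0.981, edgeR). Psmb7, the trypsin-like site, measured 446, 439, 422 and 441 TPM in controls and 416, 435, 424 and 437 TPM in cold libraries. Again the ranges overlapped, and the log2 fold change was -0.04 ± 0.05 (SE; adjusted p = 0.999, edgeR).

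Among the other β subunits, which have no active site, Psmb3 came nearest to a difference. It measured 497, 512, 469.6 and 450.1 TPM in controls and 446, 457, 440.3 and 443 TPM in cold libraries, so that cold 2 alone lay above the lowest control. Its log2 fold change was -0.12 ± 0.07 without the block (adjusted p = 0.878) and -0.12 ± 0.04 with it (SE; adjusted p = 0.115), both in edgeR. An exact two-sided permutation test on TPM gave p = 0.0571 (adjusted over all genes 0.714), where 70 arrangements allow no p below 0.0286. Psmb3 was also the member with decimal counts in all 8 libraries, which arise when reads are shared out between similar sequences. Psmb2, the lowest β subunit, measured 318, 306, 283 and 277 TPM in controls and 282, 289, 296 and 281 TPM in cold libraries, with the cold libraries inside the control range.

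All 7 β genes had a fold change below 0, with a median log2 fold change of -0.05, and 0 of 7 were called in either fit on all libraries. The direction held in 7 of 7 genes under the other scalings and in 6 or 7 without any single library, with medians between -0.02 (without control 1) and -0.09 (without control 4). Among libraries 1 and 2 alone 7 of 7 were below 0 with a median of -0.13. There Psmb2 and Psmb3 were called lower, beside 853 genes called lower and 589 called higher of 12452. That split was known from the data, so this is a description and no test. Among libraries 3 and 4 alone 3 of 7 were below 0, with a median of 0.01. There 0 members were called, beside 48 genes called lower and 2 called higher of 12595. The summed level of the β genes was 3007 ± 96.1 TPM in the controls and 2913 ± 32.9 TPM in the cold (SD, n = 4). Cold 2 and 4, at 2885 and 2896 TPM, lay below the lowest control at 2899 TPM, and cold 1 and 3 lay among the controls. The α genes summed to 2358 ± 90.7 TPM in the controls and 2399 ± 82.4 TPM in the cold.

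All tissue-restricted core subunits had lower levels than the standard ones, and Psmb10 was the highest of them. Psmb8, Psmb9 and Psmb10 replace the standard active sites in the immunoproteasome, which interferon induces. Psmb10 measured 23.8, 25.7, 28.8 and 27.9 TPM in controls and 22.4, 25.1, 26.9 and 25.2 TPM in cold libraries. Each cold library was below the control of its number, with overlapping ranges and a log2 fold change of -0.11 ± 0.08 (SE; adjusted p = 0.984, edgeR). Its TPM was 6.09% ± 0.642 of that of its standard counterpart Psmb7 in control and 5.81% ± 0.391 in cold libraries (SD, n = 4).

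Psmb8 measured 0.90, 0.77, 1.91 and 1.17 TPM in controls and 0.38, 0.40, 1.81 and 2.10 TPM in cold libraries. These came from 9, 8, 18 and 12 counts in controls and 4, 4, 18 and 21 counts in cold libraries, so cold 1 and 2 were lowest and cold 4 highest. Its TPM was 0.264% of that of Psmb5 in control and 0.269% in cold libraries. Psmb9 had 0, 3, 5 and 3 counts in controls and 1, 4, 4 and 10 counts in cold libraries, near the floor of 3 counts. The testis subunit Psma8 had 2, 1, 2 and 2 counts in controls and 0, 2, 4 and 1 in cold libraries. Psmb11, the β subunit of the thymus, had 1 count in control 3 and 0 in the other libraries, so no difference was detectable for these 3 genes at this depth.

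The 6 ATPases of the 19S particle drive unfolding. Psmc3, the highest, measured 534, 539, 458 and 444 TPM in controls and 522, 520.1, 456 and 449 TPM in cold libraries. They formed a high pair (numbers 1 and 2) and a low pair (numbers 3 and 4) in each group, and the log2 fold change was -0.04 ± 0.10 (SE; adjusted p = 0.999, edgeR). Psmc4, the lowest, measured 177, 177, 155 and 154 TPM in controls and 171, 167, 159 and 162 TPM in cold libraries. It showed the same order of numbers, with all cold values inside the control range. Log2 fold changes of the ATPases had a median of 0.01, with 3 of 6 below 0, and 0 of 6 were called. Leaving out 1 library moved the count below 0 from 0 of 6 (without control 1 or control 2, medians 0.04 and 0.03) to 5 of 6 (without control 3, control 4 or cold 1, medians -0.05, -0.03 and -0.02) or 6 of 6 (without cold 2, median -0.04), so the ring had no stable direction.

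The 11 non-ATPase subunits with a Psmd symbol belong to the base and the lid. Psmd2, a large scaffold of the base, was the highest with 299.8, 306, 327 and 337 TPM in controls and 295, 300.3, 328 and 305 TPM in cold libraries. The groups overlapped. Psmd11, a lid subunit, was the lowest with 108, 114, 106 and 107 TPM in controls and 120.2, 123, 103 and 107 TPM in cold libraries, of which cold 1 and 2 lay above all controls and cold 3 below them. Across the 11 genes the median log2 fold change was 0.02, with 4 below 0 and 7 above. The median was below 0 without control 3 (7 of 11 below, median -0.03), without cold 1 (6 of 11, -0.01) and without cold 2 (9 of 11, -0.02). None of the 11 was called in either fit.

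Psmd7, a lid subunit that pairs with the deubiquitinase Psmd14, measured 265, 273, 243 and 248 TPM in controls and 263, 257, 227 and 232 TPM in cold libraries. Each cold library lay below the control of its number. Its log2 fold change was -0.09 ± 0.08 without the block (adjusted p = 0.999) and -0.09 ± 0.04 with it (SE; adjusted p = 0.192), both in edgeR. Psmd12, which had the largest positive estimate, measured 180.0, 182, 165 and 169.9 TPM in controls and 196, 196, 179 and 172 TPM in cold libraries. Each cold library lay above the control of its number. The log2 fold change of Psmd12 was 0.08 ± 0.08 without the block (adjusted p = 0.999) and 0.08 ± 0.04 with it (SE; adjusted p = 0.279), both in edgeR.

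The balance of 19S to core transcripts overlapped between the groups. The mean TPM per 19S subunit was 0.591 ± 0.010 of that per standard core subunit in control and 0.603 ± 0.021 in cold libraries (SD, n = 4). In controls the ratio ran from 0.580 to 0.604 and in cold libraries from 0.583 to 0.628, so the ranges overlapped. Cold 1 and 2, at 0.613 and 0.628, lay above all controls, and cold 3 and 4 lay among them. The ratio of ATPase to core means was 0.718, 0.731, 0.667 and 0.6695 in controls. It was 0.733, 0.756, 0.684 and 0.676 in cold libraries, each above the control of its number, with overlapping ranges. These ratios were not tested. The 17 members that belong to the 19S particle summed to 3853 ± 183 TPM in the controls and 3891 ± 197 TPM in the cold.

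Psmd5, Psmd9 and Psmd10 are chaperones that hold ATPases during assembly and leave the finished particle. Psmd9, the highest, measured 103, 108, 99.7 and 83.5 TPM in controls and 105, 109.7, 98.7 and 101 TPM in cold libraries. Control 4 was the lowest of the 8 and the rest overlapped. Psmd10 (gankyrin) measured 29.0, 40.5, 61.0 and 35.8 TPM in controls and 48.9, 37.3, 45.3 and 42.0 TPM in cold libraries. Its counts varied less, at 367, 428, 520 and 480 in controls and 522, 435, 470 and 454 in cold libraries. The TPM given per count of Psmd10 differed 1.45-fold between libraries, so its TPM and its counts did not follow each other. All 3 genes had fold changes above 0, with a median log2 fold change of 0.03, and 0 of 3 were called.

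The activators include PA28αβ, encoded by Psme1 and Psme2 and induced by interferon γ, the nuclear PA28γ (Psme3) and PA200 (Psme4). Psme1 measured 81.4, 79.2, 121 and 100.2 TPM in controls and 90.9, 87.0, 113 and 101 TPM in cold libraries. Psme2 measured 178, 178, 221 and 216 TPM in controls and 171, 168, 217 and 211 TPM in cold libraries. Libraries 3 and 4 were above libraries 1 and 2 in both groups for both genes, the opposite of the ATPases. The log2 fold changes of Psme1 and Psme2 were 0.03 ± 0.12 and -0.06 ± 0.09 (SE; adjusted p = 0.999 for each, edgeR).

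Psme3 measured 155, 158, 158 and 159 TPM in controls and 159, 162, 154 and 152 TPM in cold libraries. All of these lay between 152 and 162 TPM, and the groups overlapped. Psme4 measured 34.3, 36.5, 29.9 and 33.2 TPM in controls and 40.1, 38.3, 30.3 and 31.4 TPM in cold libraries, with cold 1 and 2 above all controls and a log2 fold change of 0.04 ± 0.12 (SE; adjusted p = 0.999, edgeR). The ratio of PA28αβ to PA28γ transcripts was 1.68, 1.63, 2.16 and 1.99 in controls and 1.65, 1.57, 2.15 and 2.05 in cold libraries. In each group numbers 3 and 4 were above numbers 1 and 2.

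Psmf1 (PI31), first described as an inhibitor of the core, measured 49.6, 42.7, 50.6 and 48.3 TPM in controls and 46.2, 37.8, 45.6 and 44.6 TPM in cold libraries. Each cold library lay below the control of its number, while control 2 lay among the cold values. Psmf1 had the most negative estimate of the members, a log2 fold change of -0.15 ± 0.08 without the block (adjusted p = 0.853) and -0.15 ± 0.05 with it (SE; adjusted p = 0.137), both in edgeR.

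The chaperones Psmg1 to Psmg4 assemble the α ring. Psmg1, the highest, measured 171, 168, 165 and 167 TPM in controls and 161, 164, 175 and 177 TPM in cold libraries. Cold 1 and 2 lay below all controls and cold 3 and 4 above them, with a log2 fold change of 0.001 ± 0.051 (SE; adjusted p = 0.999, edgeR). Psmg2, the partner of Psmg1, measured 71.2, 62.7, 74.3 and 76.4 TPM in controls and 62.4, 70.2, 67.5 and 67.7 TPM in cold libraries. Its groups overlapped, and its log2 fold change was -0.10 ± 0.06 (SE; adjusted p = 0.905, edgeR).

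Psmg3 and Psmg4 form the other chaperone pair. Psmg3, the lowest of the 4, measured 37.1, 43.1, 31.1 and 35.0 TPM in controls and 38.0, 39.2, 39.1 and 35.3 TPM in cold libraries. Psmg4 measured 41.6, 47.8, 35.6 and 33.8 TPM in controls and 44.9, 40.0, 31.1 and 43.3 TPM in cold libraries. Both genes interleaved between groups, and Psmg4, with 102 to 164 counts per library, had the fewest counts of the tested members after Psmb8. Psme3ip1 measured 48.9, 47.3, 48.9 and 48.2 TPM in controls and 53.5, 48.3, 48.9 and 48.4 TPM in cold libraries, with cold 1 alone above the others.

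Members also differed between replicate numbers. On the log2 scale of TMM-scaled CPM (counts relative to the effective library size), the range across the means of the 4 numbers exceeded the cold difference in 44 of 46 members (the exceptions were Psmd8 and Psmg2), beside 90% of all genes. The median range was 0.233 and the median size of the cold difference 0.0394 for members, beside 0.25 and 0.0695 for all genes. A range over 4 means of 2 libraries exceeds a difference of 2 means of 4 libraries by noise alone, and the members' share was near the background, so this is a description only. Libraries of numbers 1 and 2 stood apart from those of 3 and 4, a split seen in the data that the labels do not explain. It was therefore described without a test.

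In TPM, both libraries 1 and 2 were above both libraries 3 and 4 within each group in 21 of 46 members, beside 12.8% of all genes. The opposite order was found in 7 members (Psmb8, Psmb10, Psmd2, Psmd5, Psmd8, Psme1 and Psme2), beside 28.5% of all genes. The first set held 6 of 6 ATPases, 13 of the 17 members of the 19S particle (ATPases included), 4 of 7 α genes and 2 of 7 β genes. By TMM-scaled CPM the numbers of members were 29 (background 21.2%) and 4 (background 21.6%), with Psmb10, Psmd5 and Psmd8 no longer in the second set.

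**Figure D3:**
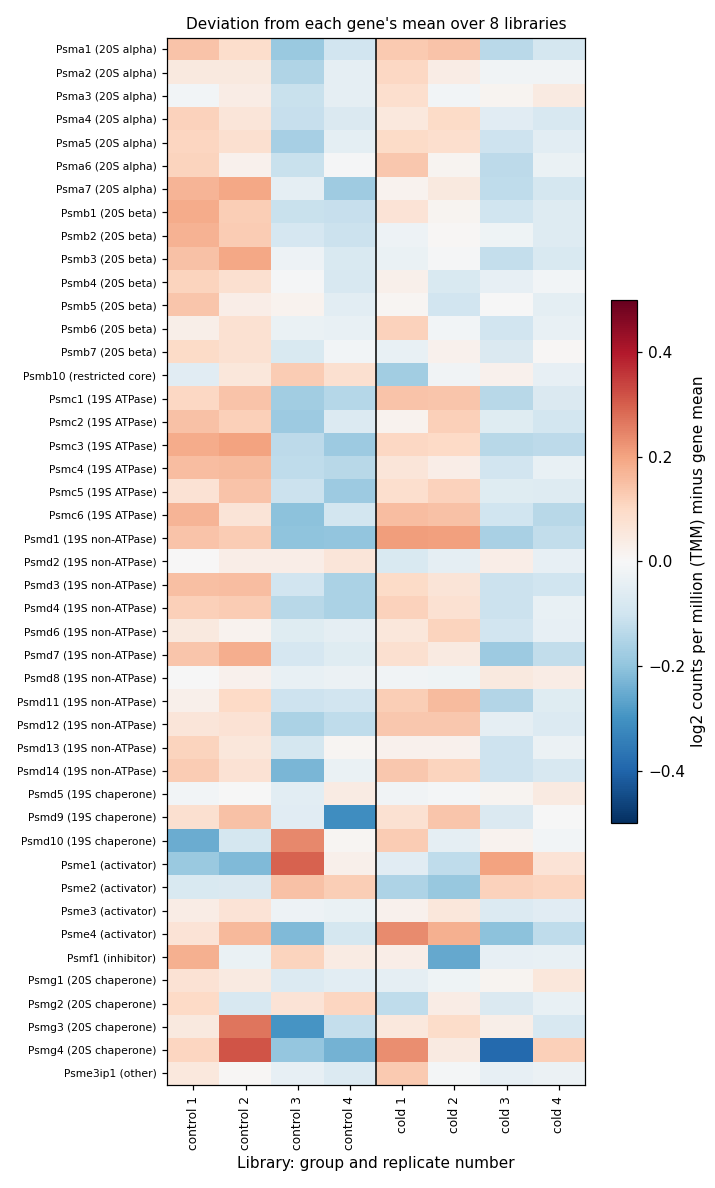
Deviation of log2 CPM (TMM-scaled) from each gene's mean over the 8 libraries, for 45 tested members in rows by role and libraries in columns (red above, blue below the mean, Psmb8 left out). Most 19S and α rows are red in numbers 1 and 2 and blue in numbers 3 and 4 in both groups, and Psme1 and Psme2 show the reverse.

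Marker genes of other cell types moved with this split. The summed fibroblast markers ran from 1201 to 1292 TPM in numbers 1 and 2 and from 1472 to 1739 TPM in numbers 3 and 4, and 5 of the 7 had that order within each group. Of the 6 leukocyte markers with values, whose sum ran from 26.2 to 30.7 TPM in numbers 1 and 2 and from 40.4 to 55.8 TPM in numbers 3 and 4, Cd68 and Csf1r carried the difference, while Ptprc, Adgre1, Itgam and Cd74 were at or near 0. Endothelial markers summed to 2.41 to 2.89 TPM and 3.10 to 4.14 TPM, and myogenic markers to 1825 to 2169 TPM and 1690.1 to 1910.1 TPM. Of the 7 myogenic markers, 3 were higher in numbers 1 and 2 within each group and 2 in numbers 3 and 4, among them Myf5, at 99.8 to 121 TPM and 179.5 to 205 TPM. The part of these cells, and of the days at 37°C in the control labels, in the split was not tested.

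**Figure D4:**
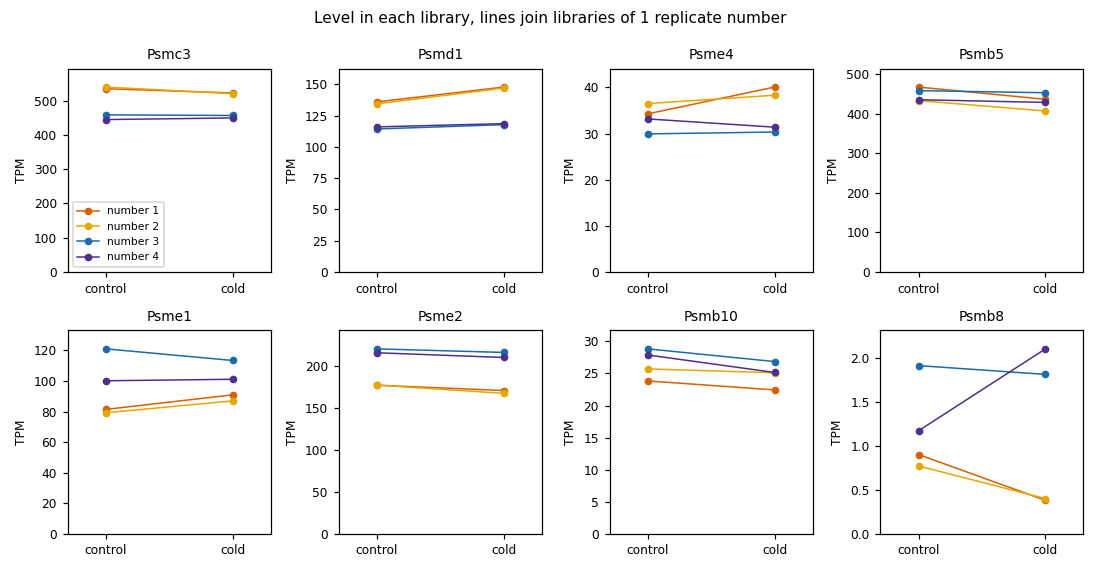
TPM (vertical axis, from 0) in control and cold libraries for Psmc3, Psmd1, Psme4, Psmb5, Psme1, Psme2, Psmb10 and Psmb8, with a line joining the libraries of each number. For Psmc3 and Psmd1 the lines of numbers 1 and 2 run above those of 3 and 4, for Psme1 and Psme2 below, and most lines are nearly level.

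Genes that work with the proteasome but do not carry these symbols were examined as 5 lists: other subunits and assembly factors, proteasome-bound deubiquitinases, ligases and shuttles, transcription of proteasome genes, ubiquitin and E1 enzymes, and interferon and antigen processing. Of the 39 genes listed, 33 were tested, and 0 were called without the block. With the block 1 was called lower, beside 4.07% of all genes, and 0 higher, beside 1.26%, so the count is near the background. Pomp, Sem1, Paaf1, Ddi2, Vcp and Tapbp were not analysed here.

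The gene called lower was Zfand2a, a zinc finger gene induced by arsenite and heat whose product binds the 19S particle. It measured 19.1, 17.7, 13.1 and 12.8 TPM in controls and 15.0, 16.4, 10.5 and 11.9 TPM in cold libraries, each cold library below the control of its number. Its log2 fold change was -0.24 ± 0.07 with the block (SE; adjusted p = 0.035) and -0.25 ± 0.20 without it (adjusted p = 0.993), both in edgeR, so the call rests on the pairing. Nfe2l1, the factor that raises proteasome genes when proteolysis is impaired, averaged 101 ± 5.63 TPM in the controls and 94.9 ± 6.31 TPM in the cold (SD, n = 4; blocked adjusted p = 0.118, edgeR). The other 3 of the 4 tested genes of its list had fold changes above 0. Uchl5, a proteasome-bound deubiquitinase, leaned higher, at 73.0 ± 4.4 TPM in the controls and 81.3 ± 5.0 TPM in the cold (SD, n = 4; blocked adjusted p = 0.114, edgeR). In the list of Uchl5, 8 of 11 genes had fold changes above 0 and 3 below. Among the 9 genes of interferon signalling and antigen processing that were tested, 0 were called in either fit.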

How the data were processed

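RNA of 8 libraries was sequenced as 150-bp paired-end reads by the authors' service provider. The authors deposited a table with expected counts, not normalized, with TPM values, scaled within each library, and with normalized counts, a signal scaled by one factor per library that was not used here. The submitters' processing notes name HISAT and HISAT2. The counting program and genome build are not given in the sources used here.

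Expected counts were rounded and tested in R 4.3.3 with edgeR 4.0.16 (filterByExpr, TMM, quasi-likelihood F test, called at an adjusted p under 0.05). Alternatives were a replicate block, other scalings and filters, DESeq2 1.42.0, limma 3.58.1 on log2(TPM + 0.1 or 1), and libraries left out. Scripts were tested on simulated data. Same-number libraries deviated together over all genes tested, with r = 0.609, 0.618, 0.647 and 0.659 for numbers 1 to 4. However, libraries 1 and 2 of opposite groups also correlated at 0.569 and 0.591, and libraries 3 and 4 at 0.472 and 0.432. The pairing by number comes from the data and not from the labels. Members and lists were chosen with earlier results of these data known. Values per library were given for the catalytic and tissue-restricted core subunits, the activators, the Psmg chaperones and the highest and lowest gene of each role. Psmb3, Psmd7, Psmd12, Psmf1 and Psme3ip1 were added after their values were seen. Of the genes that work with the proteasome, Nfe2l1 and Uchl5 were named though neither was called. Depth was 16530747 to 18533801 counts per library, and counts at or under 3 were treated as the floor. All 49 member identifiers matched RefSeq symbols. No sequences or coordinates were used. Figures were drawn with matplotlib 3.10.9.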

Additional observations from a re-analysis of the deposited data

Results flagged for a closer look

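Among 92 groups of 4 libraries (46 members in each of the 2 conditions), 4 had 1 library far from the other 3, where chance alone gives about 4.6. In Psma2, control 3 measured 414 TPM and the next control 444 TPM, a gap of 0.92 of the group's range. In Psma3, cold 2 measured 400.1 TPM and the next cold library 424 TPM, a gap of 0.872 of the range. In Psmb4, cold 2 measured 389 TPM and the next 412 TPM, a gap of 0.885 of the range. In Psme3ip1, cold 1 measured 53.5 TPM and the next 48.9 TPM, a gap of 0.885 of the range.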

How the results depend on the processing

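Over 26 alternatives, 0 members were called higher in cold. Over all genes the number called higher ran from 0, as without control replicate 1, to 589 with replicates 1 and 2 alone. Called lower were 0 members in the fits with a replicate block on all 8 libraries, with other scalings, filters and tools, and without any single library (lowest 0, highest 0). In these fits 0 to 521 of all genes were called lower. Without both libraries of number 4, with the replicate block, 1 of 45 members was called lower (Psmb3, log2 fold change -0.16, edgeR adjusted p = 0.022), beside 608 of 12454 genes. With replicates 1 and 2 alone, 3 of 45 members were called lower, beside 853 of 12452 genes: Psma7 (-0.16), Psmb2 (-0.17) and Psmb3 (-0.20), with edgeR adjusted p of 0.031, 0.032 and 0.006. Replicates 3 and 4 alone gave 0 members, beside 48 genes called lower and 2 called higher of 12595. This split was known from the data, so these adjusted p are descriptive. The cause was not tested. The median log2 fold change of members ran from -0.0376 (without control replicate 3) to 0.0176 (without control replicate 1) over the fits that left out 1 library, and was -0.0372 with replicates 1 and 2 alone and 0.0193 with replicates 3 and 4 alone, against 0.0026 in all libraries and 0.0034 with the block, which changed no member's call. Of 1193 fold changes of single members under the alternatives, 130 had another sign than in the fit on all libraries, and apart from Psmb8 they ran from -0.20 to 0.20. Over all genes, 9 were called lower and 0 higher without the block, 509 and 158 with it, and 133 and 3 by DESeq2. Depth limits Psmb8, Psmb9, Psma8 and Psmb11.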
